A study of Mus musculus with 4 samples.

Results

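Normal plasma cells of mouse bone marrow were divided by their messenger RNA for the MHC class II antigen presentation genes. The cells came from wild-type marrow of the C57/BL6 strain and had been sorted as CD138+ B220-, the surface profile of plasma cells. The members were selected on measured values. A cell entered when Jchain, the joining chain of secreted IgM and IgA, made up at least 5% of its UMIs (unique molecular identifiers, each standing for 1 captured transcript). It was called class II-positive with 2 or more UMIs summed over Cd74, H2-Aa, H2-Ab1 and H2-Eb1, class II-negative with 0, and left out with 1. Of 163 cells in the wild-type library, 106 passed the Jchain floor, of which 89 were class II-positive, 5 were class II-negative and 12 were left out. The members were therefore 94 of the 781 cells in the whole series.

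The study set wild-type cells beside myeloma cells of the VQ model, in which donor cells were grown in recipient animals. VQ cells carried the Vκ*MYC transgene, the Nras LSL Q61R/+ allele, which stays silent until Cre removes a stop cassette, and IgG1-Cre, all on the same strain. There were 2 VQ bone marrow libraries, 1 VQ lymph node library and 1 wild-type library. The wild-type library is described as age-matched in the study's design, with no age given. Its 163 cells held 340253 UMIs, with a median of 2021 UMIs per cell, and no cell barcode was shared between any of the 4 libraries. With 1 wild-type library no difference between its cells has a replicate check, so no test was made and no p-value is given. Intervals on folds and shares are 95% intervals that cover counting error only.

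MHC class II molecules carry peptides of engulfed proteins to the cell surface for CD4+ T cells. H2-Aa and H2-Ab1 are the α and β chains of the I-A molecule, H2-Eb1 is the β chain of I-E, and Cd74 is the invariant chain that holds the groove during transport. C57BL/6 mice make no I-E at their surface because their I-E α chain gene is defective. B cells express these genes through the coactivator Ciita. During plasma cell differentiation Blimp-1, the product of Prdm1, represses Ciita, so that class II is known to decline as the cell turns to antibody secretion. The promoters of class II genes hold an ordered module of X, X2 and Y boxes bound by RFX, CREB family members and NF-Y, and class I promoters hold a related module.

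Promoter sequences are shown for a pair of the class II genes that chose the cells and for H2-K1 and B2m, the class I genes with the most UMIs, since class I and class II genes are compared below. Each run holds the 150 bases before the annotated start, read 5′ to 3′ on the strand of the gene, from RefSeq on GRCm38.p6. Capitals mark ATTGG, the Y box letters that are CCAAT on the other strand, and TGACG, part of the CREB family site, or its complement CGTCA.
H2-Aa: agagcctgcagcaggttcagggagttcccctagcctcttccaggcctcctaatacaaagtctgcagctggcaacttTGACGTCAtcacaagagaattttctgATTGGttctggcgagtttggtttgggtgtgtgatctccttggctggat
H2-Eb1: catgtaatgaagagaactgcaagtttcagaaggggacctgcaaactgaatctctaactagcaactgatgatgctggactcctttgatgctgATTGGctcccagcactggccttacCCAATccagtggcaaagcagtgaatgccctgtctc
H2-K1: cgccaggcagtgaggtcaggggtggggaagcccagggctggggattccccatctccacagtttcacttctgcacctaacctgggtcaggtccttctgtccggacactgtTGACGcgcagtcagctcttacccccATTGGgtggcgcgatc
B2m: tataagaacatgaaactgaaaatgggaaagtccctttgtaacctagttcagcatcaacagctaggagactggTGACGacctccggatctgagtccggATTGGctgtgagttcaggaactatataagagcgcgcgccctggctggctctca
The windows lie at chr17:34287824-34287973 on the minus strand for H2-Aa, chr17:34305717-34305866 on the plus strand for H2-Eb1, chr17:34000348-34000497 on the minus strand for H2-K1, which has 2 starts in the table and is shown for the first, and chr2:122147537-122147686 on the plus strand for B2m. ATTGG began at base -48 of H2-Aa, -59 of H2-Eb1, -16 of H2-K1 and -53 of B2m, counted back from the start. TGACG began at base -74 of H2-Aa, -41 of H2-K1 and -78 of B2m, and was not in this window of H2-Eb1. In H2-Aa the TGACG and CGTCA matches overlap and form a full palindrome. Across 32851 promoter windows of the same length, searched on both strands, 24.5% held ATTGG or CCAAT, 13.3% held TGACG or CGTCA and 3.65% held both. These matches are descriptions of letters and not measured binding sites.

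The rule's cutoffs and the depth of the cells chose the class together. The class II-positive cells had a median of 2133 UMIs, against 827 in the class II-negative cells, and the left-out cells had a median of 875. The 5 class II-negative cells had 3111, 835, 827, 745 and 329 UMIs, with Jchain at 32.2%, 41.3%, 6.29%, 22.8% and 36.2% of UMIs. The largest of them held 53.2% of the UMIs of its class. Over the 106 Jchain-high cells, the number of class II UMIs followed the total UMIs with a Spearman coefficient of 0.52, whereas class II UMIs per 1000 other UMIs did not follow depth (-0.02). That share was lower where the Jchain percentage was higher (-0.34), a description across cells of 1 library in which all points share the library. Just inside the Jchain floor lay cells at 5.51%, 5.64% and 5.99%, and just outside it cells at 4.98%, 4.61% and 3.78%. At the class II cutoff, 11 cells had exactly 2 UMIs and 12 had 1. When every cell was thinned to 1000 UMIs and the rule was applied to the thinned counts, 64 cells were positive and 10 negative, and at 500 UMIs 46 were positive and 28 negative. The negative class was larger at lower depth.

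**Figure D1:**
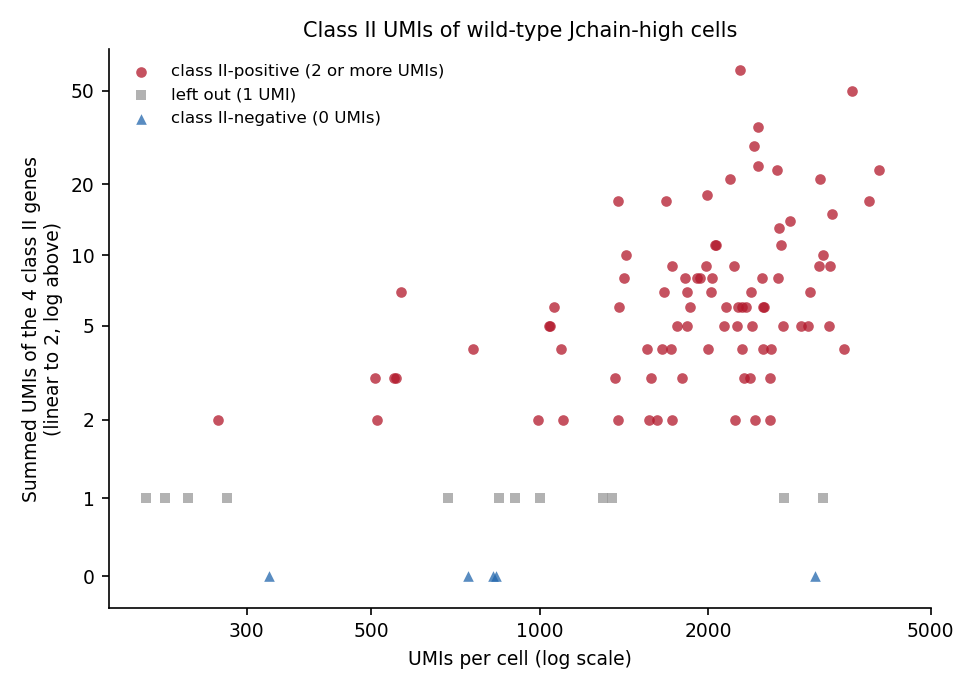
Each point is 1 of the 106 wild-type Jchain-high cells, with its total UMIs on the x axis (log scale) and its summed UMIs of Cd74, H2-Aa, H2-Ab1 and H2-Eb1 on the y axis (linear to 2, log above). Of the 5 class II-negative cells, 4 lie below 1000 UMIs and 1 at 3111, while the class II-positive cells spread between 267 and 4035 UMIs around a median of 2133.

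The 4 class II genes were unequally detected in the Jchain-high cells. Cd74, on chromosome 18, gave 479 UMIs in 96 of 106 cells. H2-Ab1 gave 158 UMIs in 53 cells, H2-Eb1 gave 95 in 42 and H2-Aa gave 72 in 20, all from genes on chromosome 17. Cd74 thus made up 59.6% of the 804 class II UMIs, in 3′ counts where a transcript's length does not scale its UMIs. Class II UMIs per cell had a median of 5 and a maximum of 61, and 9 cells had 20 or more. The genes could be compared with each other where some of them ranked the cells and others did not. For this the cells were ranked and cut into terciles, 3 groups of like size. When they were ranked by Cd74 alone, H2-Aa was 4.41-fold (2.26 to 9.41) and H2-Ab1 2.67-fold (1.77 to 4.11) as high in the upper tercile of cells as in the lower tercile. H2-Eb1 was 1.61-fold (0.978 to 2.71) as high. When the cells were ranked by the 3 H2 genes, Cd74 was 1.65-fold (1.31 to 2.09) as high in the upper tercile. In these sums, the tercile with more of the ranking transcripts therefore held more of the others, for H2-Eb1 within counting error. Cell by cell, the Spearman coefficients of Cd74 per UMI with H2-Aa, H2-Ab1 and H2-Eb1 were 0.26, 0.19 and 0.20. Among the 3 H2 genes they lay between 0.26 and 0.56. Ciita, the coactivator of class II genes, had 0 UMIs in the upper and in the lower tercile of cells ranked by all 4 genes.

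The label of normal plasma cells was checked against marker genes. All 17 plasma cell markers had a UMI in the class II-positive cells. In the class II-negative cells 15 of 17 had a UMI, and Tnfrsf17 and Eaf2 were at 0. The 17 include Jchain, whose presence the rule fixed in advance. Jchain gave 37113 of the 43177 marker UMIs in positive cells and 1688 of 1832 in negative cells. Sdc1, the gene for CD138, gave 168 UMIs in 65 of 89 class II-positive cells and 3 UMIs in 1 of 5 class II-negative cells. Mzb1, a chaperone of antibody assembly, had UMIs in 88 of 89 class II-positive and in all 5 class II-negative cells. Markers of other class II-bearing cells were counted too. Of the 20 B cell markers, 11 had a UMI in the class II-positive cells, against 3 in the class II-negative cells. Their summed level was 3.76 per 1000 other UMIs in positive cells, with cells between 0 and 20.6, against 3.85 in negative cells, with cells between 0 and 5.22. In positive cells 215 of these 554 UMIs were Ly6d, and Pax5, Ebf1, Cd22, Fcer2a, Spib, Bach2, Cd72, Cxcr5 and Ccr7 were at 0. At least 2 UMIs of the list were held by 79 of the 89 positive cells and 4 of the 5 negative cells. Of the 13 dendritic cell markers 3 had a UMI in positive cells, and 251 of 258 UMIs were Cst3, a protease inhibitor that many cells make, while Flt3, Itgax, Xcr1 and Clec9a were at 0. Macrophage markers gave 13 UMIs in positive cells, against 0 in negative cells, and Lyz2, Csf1r and C1qa were at 0. Neutrophil markers gave 13 UMIs against 0, T or NK cell markers 5 against 1 and erythroid markers 0 against 0. The positive class held 147307 other UMIs and the negative class 4159, so these raw counts are not alike in depth. Per 1000 other UMIs, macrophage and neutrophil markers were each at 0.0883 in positive cells, and T or NK cell markers at 0.0339 against 0.240. At 4159 UMIs a count of 0 does not show absence.

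Free RNA in the droplets was gauged in the same library. Below the Jchain floor, 26 cells had at least 3 UMIs of B cell precursor markers. Of these, 8 would count as class II-positive (30.8%, 14.3 to 51.8) at a median of 3278 UMIs, against 89 of 106 Jchain-high cells (84.0%, 75.6 to 90.4) at a median of 1999 UMIs. After thinning to 1000 UMIs the counts were 2 of 25 precursor-marker cells and 64 of 87 Jchain-high cells. Class II UMIs came to 4.97 per 1000 other UMIs in the Jchain-high cells and 0.594 in the precursor-marker cells. In the 31 other cells below the Jchain floor the level was 8.76, and 20 of them would count as positive. Cd74 made up 59.6% of class II UMIs in the Jchain-high cells and 24.1% in the precursor-marker cells. The precursor-marker cells had only 58 class II UMIs, of which a single cell held 24.1%. Whether free RNA supplied class II UMIs was not tested. B cell precursors may make some class II RNA themselves. After thinning, 19 of the 25 precursor-marker cells and 10 of the 87 Jchain-high cells had 0 class II UMIs.

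Between the 89 class II-positive and the 5 class II-negative cells, sums of UMIs were compared for 898 genes outside the rule with at least 30 UMIs. The class II-positive cells held 147307 UMIs outside Jchain and the class II genes, against 4159 in the class II-negative cells. Folds compare each gene's share of these UMIs. Of the 898 genes, 59 (6.57%) were at least 2-fold higher in class II-positive cells and 121 (13.5%) at least 2-fold lower, while 710 had fewer than 4 UMIs in the negative cells and 199 could be given no fold. The rule for named genes asks for 2-fold in full sums and again in cells thinned to 1000 UMIs. Under it 0 genes were higher and 52 lower in class II-positive cells, with a single negative cell left after thinning. A gene with 0 UMIs in that cell got no fold or only a bound, so most genes could hardly be called higher. The 0 and 52 therefore say nothing about the direction of change. The first 15 of the 52 were Fos, Lax1, Banf1, Cytip, Tcf4, Anxa6, Selk, Ufm1, Slc25a3, Atp5f1, Lgals1, Eif3g, Prdx1, Atp5o and Son. All except Fos, Lax1 and Selk rested on 4 to 8 UMIs in the negative cells. Lgals1 went the other way, and was higher, in the tercile comparison given below. Fos, a subunit of the AP-1 transcription factor induced within minutes by stress, had 363 UMIs in 68 of 89 positive cells and 28 UMIs in 5 of 5 negative cells, a fold of 0.366 (0.249 to 0.559). Lax1, an adaptor that dampens lymphocyte receptor signals, had 92 UMIs against 10, a fold of 0.260 (0.135 to 0.560).

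Class I presentation genes took a larger share of UMIs in the class II-positive cells. B2m, the light chain shared by all class I molecules, gave 4371 UMIs in 89 positive cells and 27, 9, 26, 12 and 3 UMIs in the 5 negative cells. Per 100 other UMIs, B2m ran between 0.61 and 6.81 with a median of 2.82 in positive cells, and between 1.28 and 3.35 with a median of 1.84 in negative cells. All 5 negative cells lay within the range of the positive cells. The fold of the sums was 1.60 (1.28 to 2.03), and 1.22 (0.921 to 1.64) without the largest negative cell. H2-K1, a class I heavy chain, had 805 UMIs in 86 positive cells and 5 UMIs in 3 negative cells, a fold of 4.55 (1.94 to 14.0), and 2.24 (0.956 to 6.92) without the largest negative cell. H2-D1, another heavy chain of close sequence with which reads may be shared, was at 1.13 (0.541 to 2.83). The 19 class I genes together gave 6010 UMIs against 100, a fold of 1.70 (1.39 to 2.09), with 1.44 (1.11 to 1.90) without the largest negative cell. Without cells holding 2 or more UMIs of the markers of another cell type, 7 positive cells stood against 1 negative cell, and the log2 fold was 0.36 for the class I sum, against 0.76 with all cells, and -0.55 for H2-K1, against 2.18 with all cells. Cd52, a small surface glycoprotein of lymphocytes, had 283 UMIs in 66 of 89 positive cells and 0 in the 5 negative cells, which makes it at least 2.66-fold higher against a floor of 3 counts over the negative class. Ly6c2, a surface protein found on many plasma cells, had 245 UMIs in 33 positive cells and 0 in negative cells, at least 2.31-fold higher. Neither 0 shows absence at a depth of 4159 UMIs.

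Single plasma cell genes lay on both sides of 1 between the positive and negative classes. Of 26 plasma cell identity genes compared, 3 were at least 2-fold higher and 3 at least 2-fold lower in positive cells. Over all 898 genes, 6.57% were this much higher and 13.5% this much lower, so these counts mark no trait of plasma cell genes. The 30 plasma cell identity genes gave 7570 UMIs against 189, a fold of 1.13 (0.979 to 1.31). Mzb1 had 875 UMIs against 21, a fold of 1.18 (0.765 to 1.91), and Slpi, a secreted protease inhibitor, had 1177 against 20, a fold of 1.66 (1.07 to 2.73). Xbp1, the transcription factor of the secretory programme, had 1005 UMIs against 48 and was lower in positive cells at 0.591 (0.442 to 0.807). Mcl1, the survival factor on which plasma cells depend, had 150 UMIs against 12, a fold of 0.353 (0.196 to 0.698). The immediate early and heat shock genes, which handling of cells induces, gave 1922 UMIs against 92, a fold of 0.590 (0.478 to 0.735), and the 84 ribosomal protein genes were level at 0.989 (0.905 to 1.08). Among the other fixed lists, the folds were 1.47 (0.948 to 2.42) for B cell genes, 1.34 (0.720 to 2.80) for class II genes outside the rule, 1.25 (1.10 to 1.42) for ER chaperone and secretion genes, 1.07 (0.801 to 1.45) for interferon response genes and 1.07 (0.862 to 1.35) for oxidative phosphorylation genes. They were 2.01 (1.17 to 3.79) for the integrated stress response, 0.672 (0.435 to 1.10) for survival and maturity genes, 0.738 (0.583 to 0.948) for transcription factors of B cell fate, of which 53.9% of UMIs were Xbp1, 0.773 (0.426 to 1.56) for NF-kB and TNF signalling, 1.30 (0.678 to 2.86) for MYC targets, 1.02 (0.590 to 1.93) for homing and adhesion and 2.06 (0.560 to 17.2) for proliferation. TMM scaling, which assumes that most genes do not change, would raise every log2 fold of these classes by 1.48, so that the smaller downward folds, that of Fos among them, rest on scaling by UMI totals.

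Because 5 cells make a thin negative class, 2 other ways of drawing it were read beside it, on the same 106 cells and so not independent. With cells of 0 or 1 class II UMI as negative, 89 positive cells stood against 17. The class I sum was then 1.53-fold (1.38 to 1.70), B2m 1.51-fold (1.33 to 1.70), H2-K1 1.91-fold (1.40 to 2.69) and Cd52 3.94-fold (1.89 to 9.89) as high in positive cells, with Cd52 at 283 UMIs against 7. With the rule applied after thinning all cells to 1000 UMIs, 64 positive cells stood against 10 at equal depth. The class I sum was then 1.60-fold (1.38 to 1.85), B2m 1.77-fold (1.48 to 2.13), H2-K1 1.72-fold (1.16 to 2.64) and Cd52 2.15-fold (1.01 to 5.48) as high. H2-D1 was at 1.19 (0.775 to 1.90) and 0.837 (0.504 to 1.47) in these comparisons. Fos stood at 0.769 (0.565 to 1.07) and 0.868 (0.524 to 1.52), and the immediate early and heat shock sum at 0.928 (0.802 to 1.08) and 1.14 (0.904 to 1.45). Some values turned round, with the ER chaperone and secretion sum at 0.931 (0.877 to 0.990) and 0.822 (0.757 to 0.894), and Slpi at 1.01 (0.830 to 1.23) and 0.678 (0.532 to 0.873). Others were higher there than against the 5 negative cells, with Ctss, the protease cathepsin S, at 1.51 (0.982 to 2.44) and 2.54 (1.20 to 6.45), against 1.20 (0.604 to 2.81). B cell genes without Cd52 were at 1.40 (1.06 to 1.88) and 1.41 (0.960 to 2.14), against 1.07 (0.690 to 1.77), and ribosomal protein genes at 1.04 (0.985 to 1.09) and 1.23 (1.14 to 1.33).

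**Figure D2:**
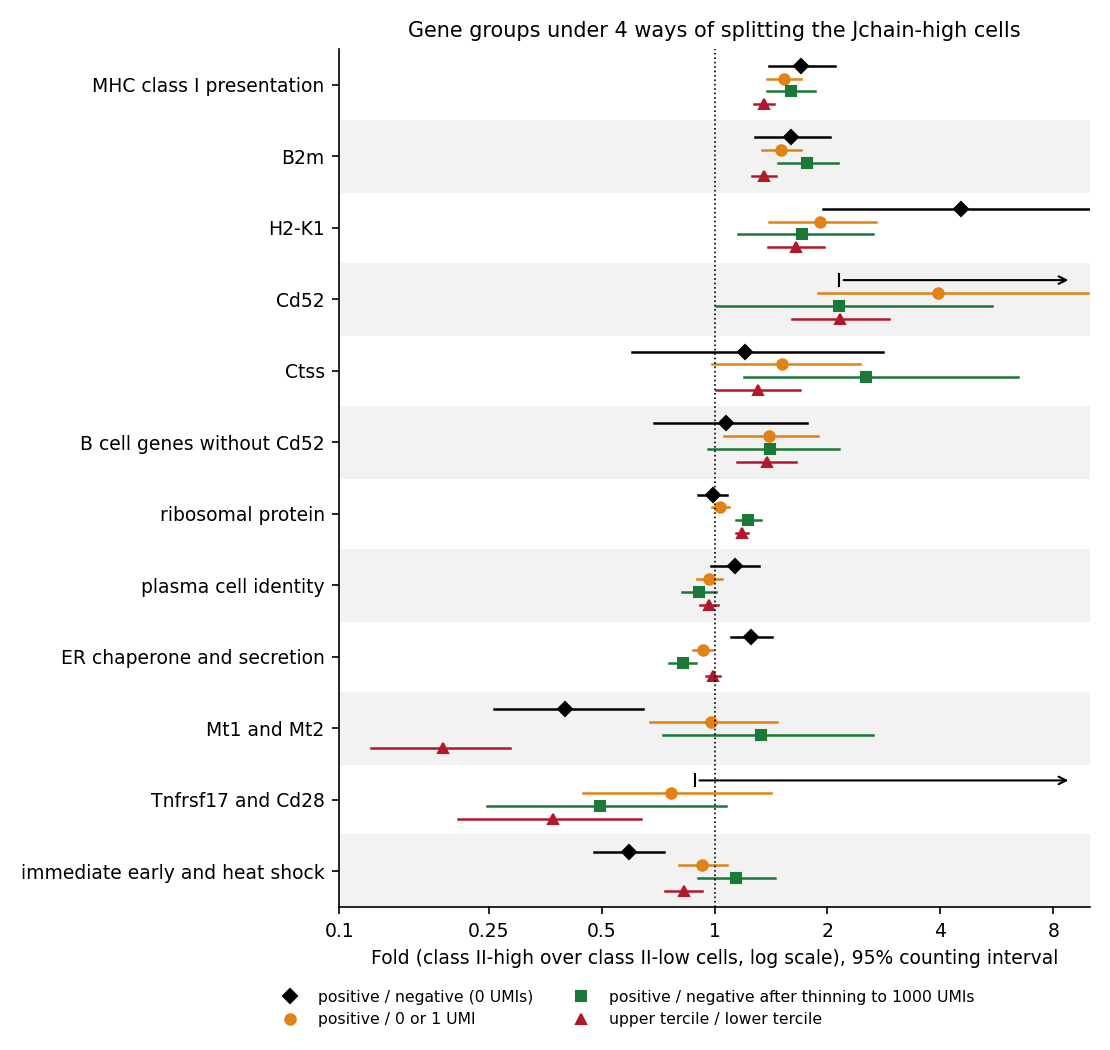
Points are folds of summed UMIs in class II-high over class II-low cells for 12 genes or gene groups, with 95% counting intervals on a log axis that ends at 10, past which the H2-K1 interval of the 0-UMI split runs on, and arrows are open intervals where the class II-low cells had 0 UMIs. All 4 splits put the class I sum, B2m, H2-K1 and Cd52 above 1, whereas Mt1 with Mt2 and the heat shock list fall on both sides of 1.

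To compare larger groups at like depth, the 106 Jchain-high cells were also ranked by class II UMIs per 1000 other UMIs. The upper tercile, the 35 cells with the highest share, was set against the lower tercile, the 35 with the lowest. The 36 cells between them were in neither group. This comparison was chosen after the 5 negative cells had been seen. The median cell had 1817 UMIs in the upper tercile and 1796 in the lower tercile. Class II UMIs numbered 500 in the upper tercile, with a median of 10 per cell, and 77 in the lower tercile, with a median of 2. By the rule, 33 of 35 upper-tercile cells and 22 of 35 lower-tercile cells were class II-positive. The terciles are thus grades of class II share and do not stand for the positive and negative classes. The upper tercile had 50829 UMIs outside the rule and the lower tercile 51518. Jchain, which had a part in choosing all the cells, made up a median of 17.2% of UMIs in the upper tercile and 22.1% in the lower tercile. Of 575 genes with at least 30 UMIs, 14 (2.43%) were at least 2-fold higher in the upper tercile and 25 (4.35%) at least 2-fold lower, and the median gene had a log2 fold of 0.02. Of the 575, 299 lay above 1 and 276 below 1.

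Other genes of the class II pathway were sparse. Of 22 measured, 15 had a UMI in these 70 cells, and only Ctss, the lysosomal protease cathepsin S that trims the invariant chain, passed the filter on low counts. Ctss had 143 UMIs in 30 of 35 upper-tercile cells and 111 UMIs in 27 of 35 lower-tercile cells, a fold of 1.31 (1.01 to 1.69). H2-Eb2, a relative of H2-Eb1 with which reads may be shared, had 12 UMIs in 8 upper-tercile cells and 2 UMIs in 1 lower-tercile cell, a fold of 6.08 (1.35 to 55.9). H2-Ob, a subunit of the H2-O modulator of peptide loading in B cells, had 12 UMIs against 5, a fold of 2.43 (0.798 to 8.81). H2-DMa and H2-DMb1, subunits of the peptide exchange factor H2-M, had 4 and 3 UMIs in the upper tercile, against 2 and 1 in the lower tercile. The 21 class II genes outside the rule without Ctss gave 58 UMIs in 22 upper-tercile cells and 37 UMIs in 18 lower-tercile cells, a fold of 1.59 (1.03 to 2.47), and 1.99 (0.965 to 4.35) after thinning to 1000 UMIs. With 0 or 1 class II UMI as negative the same sum was at 1.29 (0.678 to 2.75). Lgmn, a lysosomal endopeptidase, had 13 UMIs against 7. The whole list of class II genes outside the rule gave 201 UMIs against 148, a fold of 1.38 (1.11 to 1.71).

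As a sum, class I presentation genes were higher in the upper tercile than in the lower tercile. B2m had 1725 UMIs in the upper tercile and 1290 in the lower tercile, a fold of 1.36 (1.26 to 1.46). Per 100 other UMIs, B2m ran between 1.03 and 6.81 with a median of 3.00 in the upper tercile and between 0.88 and 4.87 with a median of 2.37 in the lower tercile. H2-K1 had 353 UMIs against 217, a fold of 1.65 (1.39 to 1.96), and H2-D1 had 119 against 79, a fold of 1.53 (1.14 to 2.06). The cells of the upper and lower tercile overlapped for each of the 3 genes. Tapbp, which loads peptides onto class I molecules, had 34 UMIs against 49, a fold of 0.703 (0.440 to 1.11). Of 19 class I genes 6 passed the filter, 5 of them above 1, beside 299 of all 575 genes. The 6 had a median log2 fold of 0.52, with 0 past 2-fold in either direction. The 19 genes summed to 2367 UMIs in the upper tercile and 1768 in the lower tercile, of which B2m made up 72.9%. The fold of the sum was 1.36 (1.28 to 1.44), and 1.37 (1.25 to 1.51) after thinning to 1000 UMIs.

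**Figure D3:**
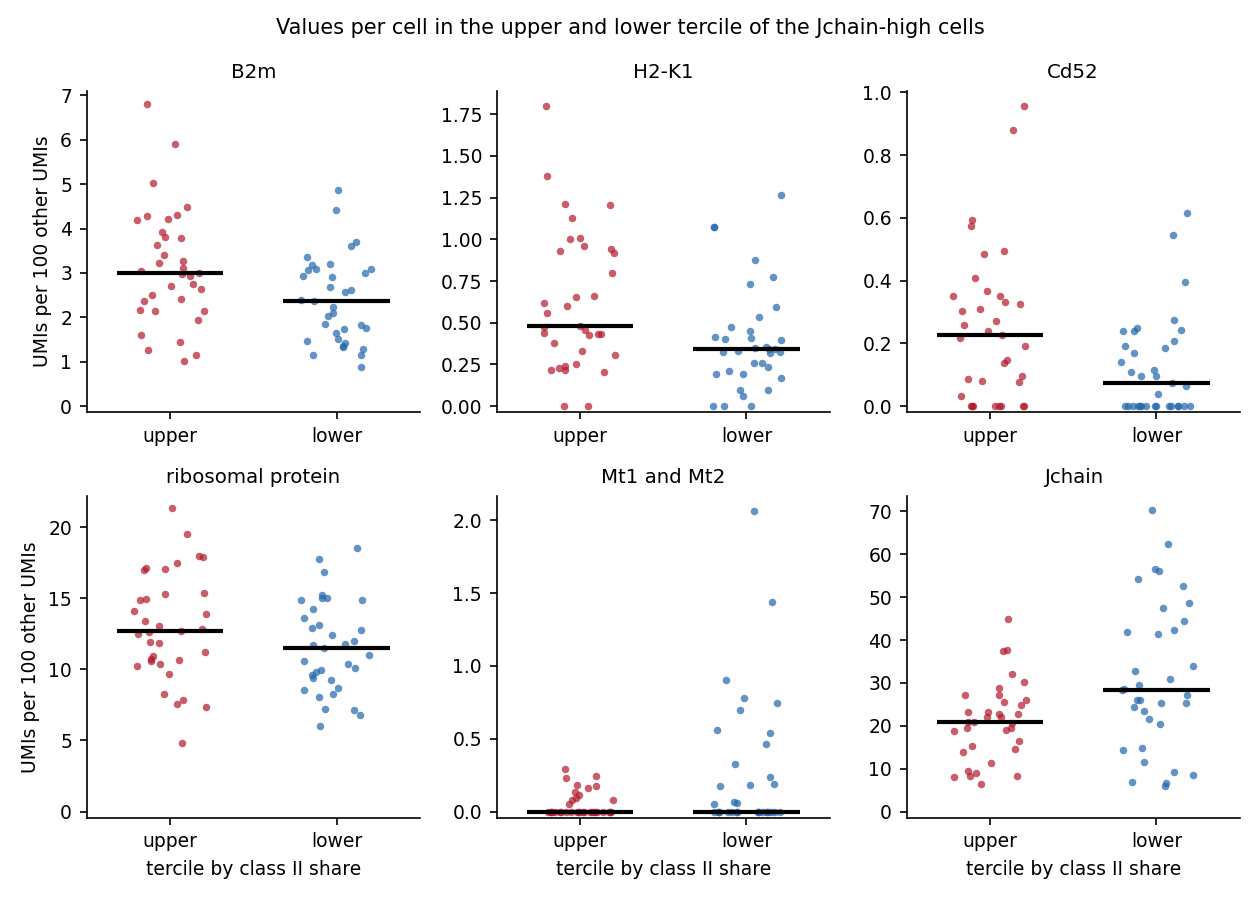
Each point is a cell of the upper (red, 35 cells) or lower tercile (blue, 35 cells) of the Jchain-high cells by class II share, the y axis gives UMIs of the gene or group per 100 UMIs outside the rule, and black lines are medians. The B2m median was 3.00 in the upper tercile and 2.37 in the lower tercile, with overlapping cells in every panel.

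Cd52 led the B cell genes. It had 147 UMIs in 27 of 35 upper-tercile cells and 69 UMIs in 20 of 35 lower-tercile cells, a fold of 2.16 (1.61 to 2.92), with 74 UMIs in the 36 cells between them. The most from a single cell was 21 UMIs in the upper tercile and 14 in the lower tercile, and the log2 fold was 1.11 with all cells and 0.95 without the richest cell. It was 2.56-fold (1.60 to 4.24) as high after thinning. Fcrla, an intracellular Fc receptor-like protein of the B lineage, had 51 UMIs against 29, a fold of 1.78 (1.11 to 2.92). Ly6d, a surface protein of early B cells, had 69 UMIs against 62, Cd79b, a signalling chain of the B cell receptor, 52 against 50, and Ptprc, the gene for CD45, 16 against 13. Ms4a1, the gene for CD20, had 6 UMIs against 4, and Pax5, the B cell identity factor, 0 against 0. All 5 of the 30 listed B cell genes that passed the filter lay above 1, as did 299 of all 575 genes. The 5 had a median log2 fold of 0.17, with 1 of them past 2-fold. Without Cd52 the list gave 288 UMIs against 212, a fold of 1.38 (1.15 to 1.65). The summed B cell markers of the label check stood at 4.25 per 1000 other UMIs in the upper tercile, with cells between 0 and 20.6, and 3.05 in the lower tercile, with cells between 0 and 7.04. Of their 20 genes, 10 had a UMI in the upper tercile and 9 in the lower tercile. Without cells holding 2 or more UMIs of the markers of another cell type, 4 upper-tercile cells stood against 4 lower-tercile cells. The log2 fold was then 0.52 for the class I sum, against 0.44 with all cells, and -0.31 for Cd52. When the B cell and dendritic cell lists were not used for leaving cells out, it was 0.56 for the class I sum and 1.32 for Cd52.

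Plasma cell identity genes summed to a fold near 1 between the terciles. Sdc1 had 47 UMIs against 54, Prdm1 20 against 24, Irf4, a factor that plasma cells need, 32 against 35, Xbp1 367 against 372 and Mzb1 300 against 289. Their log2 folds lay between -0.24 for Prdm1 and 0.07 for Mzb1. Prg2, a granule protein that plasma cells also transcribe, had 153 UMIs against 109, a fold of 1.42 (1.11 to 1.84). Slpi had 355 UMIs in 24 upper-tercile cells and 465 UMIs in 31 lower-tercile cells, a fold of 0.774 (0.672 to 0.890). A single upper-tercile cell held 180 of its UMIs. Of 30 identity genes 22 passed the filter, 12 above and 10 below 1, with 0 at least 2-fold higher, 2 at least 2-fold lower and a summed fold of 0.966 (0.914 to 1.02). The 6 transcription factors of B cell fate that passed the filter had a median log2 fold of -0.01 and 0 were past 2-fold, and the list of 27 gave 677 UMIs against 669.

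Receptors of plasma cell maturation and survival had fewer UMIs in the upper tercile. Tnfrsf17, the gene for BCMA, the receptor through which APRIL keeps plasma cells alive, had 12 UMIs in 10 upper-tercile cells and 31 UMIs in 16 lower-tercile cells, a fold of 0.392 (0.183 to 0.786). Cd28, a costimulatory receptor that supports long-lived plasma cells, had 7 UMIs in 6 cells against 21 in 12, a fold of 0.338 (0.121 to 0.825). Epcam, a surface adhesion molecule found on long-lived marrow plasma cells, had 0 UMIs against 5, and Cd93, needed to maintain plasma cells in the marrow, had 9 against 12. Mcl1 stood at 59 UMIs against 62, and Pim2, a survival kinase, at 19 against 16. Of the 22 genes of the list 3 passed the filter, 0 at least 2-fold higher and 1 at least 2-fold lower, and the sum was 154 UMIs against 205, a fold of 0.761 (0.614 to 0.943). After thinning, Tnfrsf17 alone was at 0.515 (0.174 to 1.39), an interval that holds 1, and Cd28 alone at 0.147 (0.0161 to 0.650). Tnfrsf17 and Cd28 together were at 0.370 (0.207 to 0.637) in full sums and 0.331 (0.136 to 0.729) after thinning. They were paired after their values were seen, and the intervals do not allow for that choice. The pair had 19 UMIs in the upper tercile, 62 in the cells between the terciles and 52 in the lower tercile. With cells of 0 or 1 class II UMI as negative they were at 0.767 (0.447 to 1.41), from 118 UMIs against 15, and with 0 UMIs as negative they had 118 UMIs against 0. Homing and adhesion genes showed no split of this size, with Cd44 at 38 UMIs against 38, Cd47 at 26 against 24 and Itgal at 25 against 36. Of the 20 genes of that list 4 passed the filter, 0 of them past 2-fold, and the summed fold was 0.896 (0.716 to 1.12).

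Mt1 and Mt2, metallothioneins that bind zinc and answer metals and glucocorticoids, were the lowest of the named genes in the upper tercile. Mt1 had 16 UMIs in 10 of 35 upper-tercile cells and 90 UMIs in 14 of 35 lower-tercile cells, a log2 fold of -2.47 (-3.34 to -1.70). Mt2 had 12 UMIs in 5 cells against 60 in 14, a log2 fold of -2.30 (-3.33 to -1.39). The pair, neighbours on chromosome 8, made up 0.0551% of UMIs outside the rule in the upper tercile, 0.276% in the 36 cells between the terciles and 0.291% in the lower tercile. The median cell of the upper tercile and of the lower tercile had 0. The split of the cells decided their value. The pair stood at 0.189 (0.122 to 0.285) in upper over lower tercile, 0.399 (0.259 to 0.646) with 0 class II UMIs as negative, 0.978 (0.675 to 1.46) with 0 or 1, and 1.33 (0.730 to 2.64) with the rule on counts thinned to 1000. With the cells ranked by Cd74 alone the log2 fold of Mt1 was -0.45 and that of Mt2 -0.71. Among the 5 negative cells they gave 5, 0, 16, 1 and 0 UMIs.

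Genes of cellular stress and interferon response also had fewer UMIs in the upper tercile. The immediate early and heat shock list gave 584 UMIs against 716, a fold of 0.827 (0.740 to 0.923), and 0.933 (0.776 to 1.12) after thinning. Fos had 104 UMIs against 146 and Jun, its AP-1 partner, 62 against 91. Hspa1a, an inducible Hsp70 chaperone nearly identical to Hspa1b, had 14 UMIs in 5 cells against 31 in 8, a fold of 0.458 (0.225 to 0.886), and Hsp90ab1, a cytosolic chaperone, had 58 against 79. Of 32 listed genes 12 passed the filter, 2 above and 10 below 1, beside 299 above and 276 below over all 575 genes. Of the 12, 1 was at least 2-fold lower, and the median log2 fold was -0.25. The 4 interferon response genes that passed the filter lay below 1, as did 276 of all 575 genes. Ly6a, the stem cell antigen Sca-1, had 189 UMIs against 275, a fold of 0.697 (0.576 to 0.841). After thinning Ly6a was at 0.758 (0.567 to 1.01), and it lay the other way at 1.22 (0.735 to 2.20) with 0 class II UMIs as negative, 1.29 (0.965 to 1.76) with 0 or 1, and 1.13 (0.764 to 1.72) with the rule on thinned counts. Ly6e had 281 UMIs against 295, Isg20 25 against 31 and Ifi27l2a 13 against 29. In Ifi27l2a 1 lower-tercile cell held 17 of the UMIs, and its log2 fold was -1.14 with all cells and 0.05 without that cell. The list of 38 gave 555 UMIs against 715, a fold of 0.787 (0.703 to 0.880), and 0.836 (0.699 to 0.999) after thinning. NF-kB and TNF signalling genes gave 116 UMIs against 109, and Nfkbia, the inhibitor of NF-kB that its own target induces, 68 against 52.

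**Figure D4:**
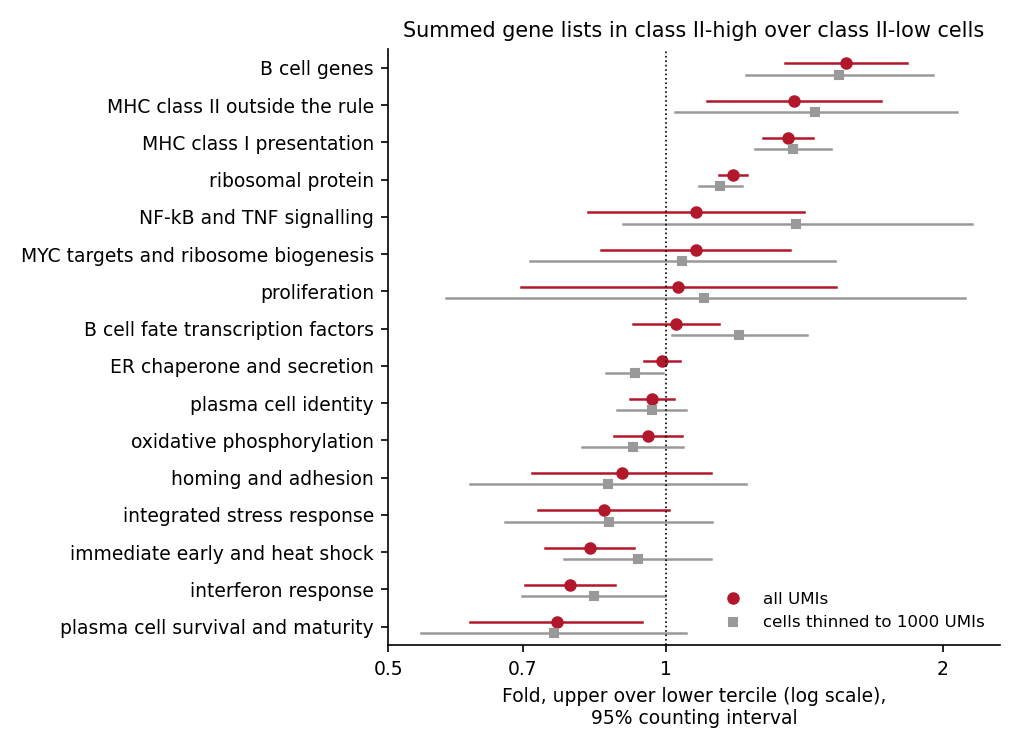
Points are folds of the summed UMIs of 16 gene lists in the upper over the lower tercile of Jchain-high cells, from all UMIs (red circles) and from cells thinned to 1000 UMIs (grey squares), with 95% counting intervals on a log axis. The intervals of B cell genes, class II genes outside the rule, class I genes and ribosomal proteins lie above 1 in the full sums, and the survival and maturity list at 0.761 lies lowest.

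Ribosomal protein genes were slightly higher in the upper tercile. The 84 genes gave 6800 UMIs against 5831, a fold of 1.18 (1.14 to 1.22). Of the 73 that passed the filter, 55 lay above 1, beside 299 of all 575 genes. The 73 had a median log2 fold of 0.20, with 0 past 2-fold. Rplp0, of the ribosomal stalk, had 150 UMIs against 99, Rps12 238 against 169, Rps15 128 against 83 and Rpl28 61 against 36. Per 100 other UMIs the group ran between 4.79 and 21.4 with a median of 12.7 in the upper tercile, and between 6.02 and 18.6 with a median of 11.5 in the lower tercile. MYC target and ribosome biogenesis genes gave 151 UMIs against 142, a fold of 1.08 (0.851 to 1.37), with Npm1, a nucleolar chaperone, at 27 against 15 and Nme1, a nucleotide kinase, at 27 against 23. Proliferation genes were sparse, with 55 UMIs against 54 over 47 genes, 0 passing the filter, and Mki67, the cycling marker, at 3 UMIs against 3. Oxidative phosphorylation genes gave 1067 UMIs against 1130, a fold of 0.957 (0.879 to 1.04), with 16 of 33 above 1 and 1 at least 2-fold lower.

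The secretory machinery was level between the terciles in full sums. The 54 ER chaperone and secretion genes gave 3824 UMIs against 3916, a fold of 0.990 (0.946 to 1.04), and 0.925 (0.862 to 0.993) after thinning, with 24 of 46 above 1 and 0 past 2-fold. Hsp90b1, the ER chaperone GRP94, had 289 UMIs against 363, but a single lower-tercile cell held 98 of them. Edem1, which steers misfolded proteins to degradation, had 125 against 178, a fold of 0.712 (0.562 to 0.900). Ssr4 and Ssr3, subunits of the translocon-associated complex, had 271 against 202 and 83 against 56. Of the integrated stress response 4 genes passed the filter. Atf4, its central transcription factor, had 22 UMIs against 36, Atf5, a relative, 10 against 23, and Slc3a2, an amino acid transporter chain, 163 against 192. Ppp1r15a, which ends the response, had 23 UMIs against 12. The list of 19 gave 272 UMIs against 322, a fold of 0.856 (0.726 to 1.01), with 1 gene at least 2-fold lower.

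Under the rule of 2-fold in full and in thinned sums, 10 genes were higher and 14 lower in the upper tercile, with UMIs in at least 10 cells. The higher genes beside Cd52 were Spon1, Rac2, Pon3, Sh3glb1, Rap1b, Gimap6, Lgals1, Hnrnpc and Erp29, each with 21 to 38 UMIs in the upper tercile and 8 to 17 in the lower tercile. Spon1, a secreted matrix protein, had 26 UMIs in 16 cells against 8 in 5, a fold of 3.29 (1.45 to 8.42). Rac2, a GTPase of blood cells that moves actin, had 27 UMIs in 17 cells against 9 in 7, a fold of 3.04 (1.39 to 7.35). Rap1b, a GTPase that activates integrins, had 38 UMIs against 17, a fold of 2.27 (1.25 to 4.28), and Gimap6, a GTPase of lymphocytes, 28 against 11, a fold of 2.58 (1.25 to 5.74). Pon3, a lactonase, had 31 against 12, and Sh3glb1, a membrane-bending protein of autophagy, 30 against 12. For Erp29, an ER-resident folding protein, the interval of 0.959 to 5.06 held 1. Lgals1 had 24 UMIs against 11, a fold of 2.21, but its direction depended on the split. Between class II-positive and class II-negative cells it was among the named lower genes, with 58 UMIs against 5, a fold of 0.328 (0.133 to 1.05).

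The lower genes beside Mt1, Mt2, Hspa1a and Ifi27l2a were Gm5547, Cnbp, Rbx1, Chchd10, Tsc22d3, Cited2, Txndc11, Prdx1, Rcbtb2 and Cox6c. Cnbp, a nucleic acid-binding protein, had 31 UMIs in 19 upper-tercile cells and 66 UMIs in 26 lower-tercile cells, a fold of 0.476 (0.300 to 0.740). Chchd10, a mitochondrial protein, had 23 UMIs against 51, a fold of 0.457 (0.267 to 0.762). Tsc22d3, the glucocorticoid-induced leucine zipper GILZ, had 8 UMIs in 5 cells against 23 in 11, a fold of 0.353 (0.136 to 0.816). Rbx1, the RING subunit of cullin ubiquitin ligases, had 8 against 25, a fold of 0.324 (0.126 to 0.742), and Cited2, a transcriptional coregulator, 19 against 41. Prdx1, a peroxidase that clears hydrogen peroxide, had 14 against 31, and Txndc11, an ER thioredoxin-like protein, 12 against 28. Before the thinned sums were asked for, 2.43% of compared genes were this much higher and 4.35% this much lower.

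**Figure D5:**
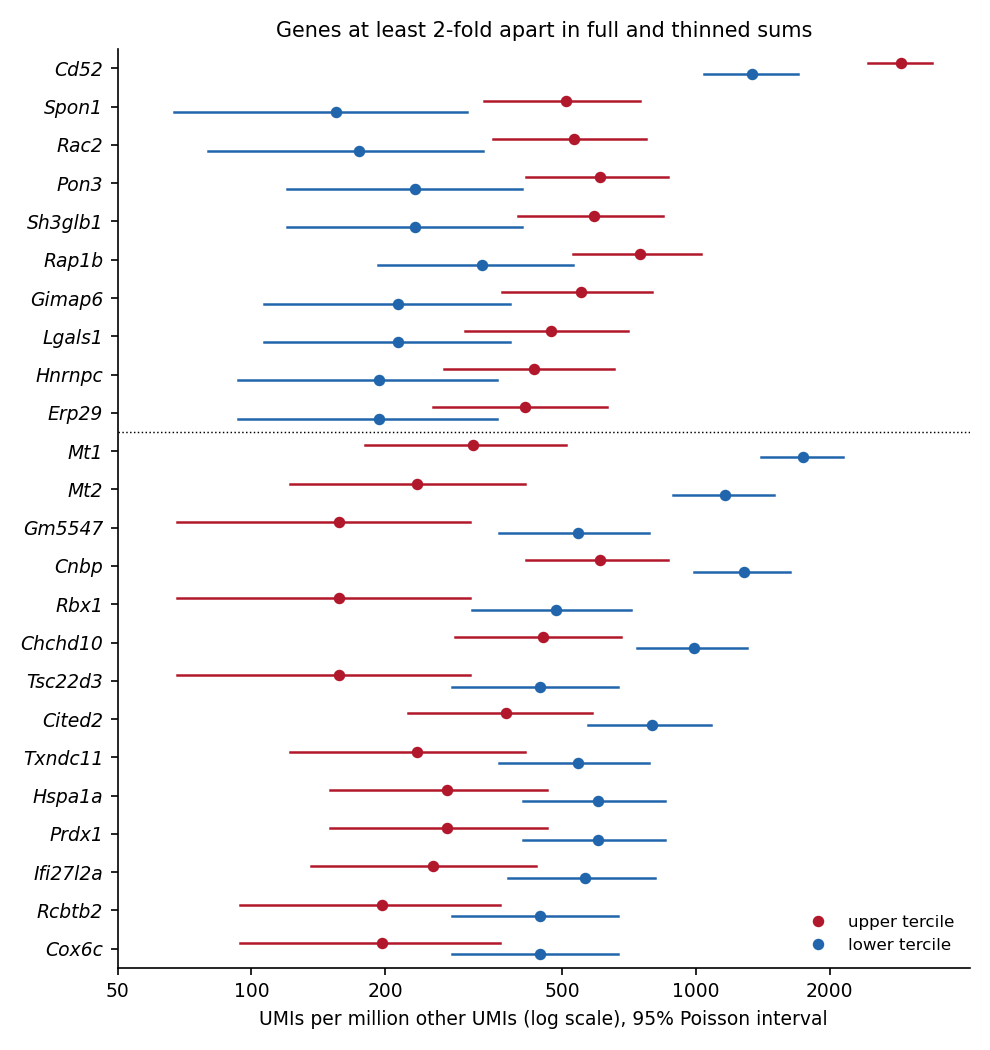
Levels of the 24 named genes in UMIs as CPM, scaled to the UMIs outside the rule (log axis) with 95% Poisson intervals, in the upper (red) and lower tercile (blue) of the Jchain-high cells, with the 10 genes higher in the upper tercile above the dotted line and the 14 lower ones below it. Cd52 stood at 2892 and 1339, and Mt1 at 315 and 1747, in the upper and lower tercile.

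The same rule was read in the VQ marrow libraries, each by itself, in cells outside the wild-type sums above. The members and lists were chosen with earlier results of these data known, so this reading is not an independent check. VQ marrow replicate 1 held 19 Jchain-high cells, with 11 class II-positive, 2 class II-negative and 6 left out, and replicate 2 held 18, with 4, 5 and 9. The VQ lymph node had 0 Jchain-high cells. Class II UMIs came to 2.58 and 2.55 per 1000 other UMIs in the Jchain-high cells of VQ replicates 1 and 2, against 4.97 in wild type. The class II-positive cells had medians of 1124 and 936.5 UMIs in VQ replicates 1 and 2, against 2133 in wild type. With cells of 0 or 1 class II UMI as 1 class, class I genes gave 330 UMIs in 11 positive cells and 137 UMIs in 8 other cells of replicate 1, and 121 UMIs in 4 positive cells and 225 in 14 other cells of replicate 2. As folds of the shares these are 1.17 (0.956 to 1.44) in replicate 1 and 1.21 (0.966 to 1.52) in replicate 2, both with intervals that hold 1. Mt1 and Mt2 gave 3 UMIs against 14 in replicate 1 and 1 against 5 in replicate 2. As shares these are folds of 0.104 (0.0192 to 0.373) and 0.452 (0.00955 to 4.04). Tnfrsf17 and Cd28 were summed here with Epcam, unlike the pair above. This set gave 8 UMIs against 18 in replicate 1, a fold of 0.216 (0.0812 to 0.522). In replicate 2 it gave 5 against 10, a fold of 1.13 (0.303 to 3.63). Wild type under the same split was at 0.798 (0.473 to 1.44) for the set. Cd52 gave 8 UMIs against 7 in replicate 1, a fold of 0.555 (0.176 to 1.80), an interval that holds 1. In replicate 2 it gave 1 against 0. Wild type under the same split was at 3.94 (1.89 to 9.89) for Cd52. Ribosomal protein genes stood at 1.16 (1.08 to 1.25) in replicate 1 and 0.762 (0.679 to 0.853) in replicate 2. The immediate early and heat shock list gave 105 UMIs against 77 in replicate 1, a fold of 0.662 (0.489 to 0.901). In replicate 2 it gave 20 against 77, a fold of 0.587 (0.340 to 0.969). Wild type under the same split was at 0.928 (0.802 to 1.08). Slpi stood at 1.40 (0.776 to 2.64) in replicate 1 and 1.07 (0.426 to 2.48) in replicate 2. Since the groups held 4 to 14 cells, these are given as values only.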

How the data were processed

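Cells were isolated on the Bio-Rad ddSEQ and made into libraries with Illumina's SureCell 3′ kit, per the labels' protocols. The deposited wild-type table gives unscaled UMI counts, cells in rows and 24421 genes in columns, without immunoglobulin chains or mitochondrially encoded genes. Reads were placed on mm10, as the submitters' processing notes name it, and other upstream steps are not given in the sources used here. Doublets were not called, because marker UMIs were counted instead.

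The members and lists were chosen with earlier results of these data known. UMIs were summed over the cells of a class and scaled to UMIs outside Jchain and the 4 class II genes. Folds carry exact conditional binomial 95% intervals, sums Poisson intervals and shares Clopper-Pearson intervals, all for counting error only, with a floor of 3 counts. Genes with at least 30 UMIs over both classes were compared, and past the fold means 2-fold or more. Named genes had UMIs in at least 10 cells and were 2-fold in the same direction in full sums and in cells thinned without replacement to 1000 UMIs, ranked by the interval bound nearest 1, up to 15 a direction, with up to 4 members of each list. Tnfrsf17 with Cd28 and genes outside that rule were chosen after their values were seen. Thinning used 1 random draw. The scripts were tested on simulated data. Python 3.11.15, numpy 2.4.6 and scipy 1.17.1 were used, with edgeR 4.0.16 in R 4.3.3 only for TMM scaling factors as an alternative. All 20 genes whose chromosome was looked up were found in GENCODE annotation of GRCm38. With 1 library there was no test across samples.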

Additional observations from a re-analysis of the deposited data

How the results depend on the processing

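Of 106 genes and lists over 1913 alternatives, 28 values in 23 genes past 2-fold changed direction. These and all counts of genes or cells that moved by more than 1.5 times are given here, while turns of values nearer 1 are not all given. The cause of each was not tested. All alternatives for the terciles were chosen after seeing the data.

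Positive against negative, 59 genes were at least 2-fold higher. The count was 17, 5 and 12 with cells thinned to 500, 1000 and 1500 UMIs, 4 with the rule on counts thinned to 500, 119 with 1 class II UMI as negative, 165 with cells weighted equally, 480 under TMM, 34 at a filter of 100 UMIs, 0 without cells holding 2 UMIs of another type and 27 when B cell and dendritic lists were not used for that. The count lower, 121, became 18, 69 and 80 with thinning, 20 and 1 with the rule on counts thinned to 1000 and 500, 69 with positive cells from 5 UMIs, 46 with 1 UMI as negative, 0 under TMM, 7 without cells of another type, and 641, 15 and 1210 at filters of 10 and 100 UMIs and none. Positive cells numbered 46 with the rule at 500, 59 from 5 UMIs and 7 without cells of another type. Negative cells numbered 1 at 1000 and at 1500 UMIs, 10 and 28 with the rule at 1000 and 500, 17 with 1 UMI as negative and 1 without cells of another type.

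Under TMM, which shifted all log2 folds by 1.48, Fos was at 0.028, Tcf4 0.059, Selk 0.45, Atp5f1 0.032 and Son 0.33. With the rule at 500, Lax1 was at 0.21, Anxa6 1.21, Ufm1 0.79 and Lgals1 2.21, and with it at 1000 Eif3g 0.29, Atp5o 0.29, Son 0.52 and Mt1 0.83. Mt1 was at 1.96 with a Jchain floor of 10%, and H2-K1 at -0.55 without cells of another type.

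Upper against lower tercile, 14 genes were higher. The count was 4, 5 and 4 with thinning to 500, 1000 and 1500, 6 when ranked on counts thinned to 1000, 23 with cells weighted equally, 24 for a split at the median, 1 without cells of another type, and 222, 1 and 1104 at filters of 10 and 100 UMIs and none. The count lower, 25, became 3, 8 and 8 with thinning, 7 when ranked on thinned counts, 14 at a Jchain floor of 10%, 3 without cells of another type, 16 in cells of at least 1000 UMIs, 16 when ranked within the cells above and below the median Jchain share, and 247, 1 and 778 at those filters. Log2 folds that turned were Cd52 at -0.31 and Tnfrsf17 at 1.28 without cells of another type (4 against 4 cells), Spon1 at -0.0012 and Tnfrsf17 at 0.32 with thinning to 500, Spon1 at -0.034 for a split at the median, Pon3 at -0.065, Hspa1a at 0.42 and Cox6c at 0.26 when ranked on thinned counts, Hnrnpc at -0.12, Erp29 at -0.49 and Tsc22d3 at 0.0036 when ranked by the H2 genes, and Ifi27l2a at 0.77 with a Jchain floor of 10% and 0.048 without its top cell. Ribosomal protein genes were at -0.34 without cells of another type.

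No paired analysis was possible because the wild-type group has 1 library, so that there was no replicate to leave out. The class II-negative class held 5 cells and 4159 UMIs outside the rule.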
